A study of Thermothelomyces thermophilus ATCC 42464 with 4 samples.

Results

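The dyads described here are CG pairs of the Myceliophthora thermophila genome that were called methylated on both DNA strands in the wild type. A CG dyad has a cytosine on the plus strand at 1 position and, because CG pairs with CG, a cytosine on the minus strand at the next position. A dyad was taken as a member when both of its cytosines stood in the deposited lists of methylated cytosines of both WT libraries. There were 42597 such dyads among 252365 CG pairs that had at least 1 strand listed in at least 1 library, or 16.9%. The mutant strain ΔlaeA, whose laeA coding region was replaced by a marker cassette, and the WT were both grown as mycelium on glucose for 24 h, with 2 whole-genome bisulfite libraries per strain. The sample titles call ΔlaeA a deletion, whereas its genotype label calls it a knockdown. No label says that the 2 libraries of a strain came from separate cultures, so the p-values below measure only the spread between these libraries, which may be technical.

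Bisulfite turns unmethylated cytosine into uracil, and a cytosine that is still read as C counts as methylated. In plants and animals CG methylation is symmetric, because a maintenance methyltransferase reads the methylated old strand after replication and copies the mark to the new strand. In the related fungus Neurospora crassa, the DNA methyltransferase DIM-2 methylates cytosines in any sequence context within AT-rich, mutated repeats, where it is guided by trimethylated lysine 9 of histone H3 and the protein HP1. LaeA is a putative methyltransferase and a global regulator of fungal development and secondary metabolism. The comparison asks whether DNA methylation differs when laeA is missing, and the dyads show how the 2 strands of a single CG pair relate in each strain.

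The ΔlaeA libraries listed 61457 and 54687 CG pairs on both strands, and the WT libraries listed 63754 and 65474. These were 34.3% and 32.1% of the CG pairs listed in the ΔlaeA libraries, against 34.7% and 35.3% in the WT libraries. The median depth at listed cytosines was 56 and 47 reads in ΔlaeA and 55 and 59 reads in WT, and ΔlaeA replicate 2 was the shallowest library. In every library the lists held only called sites, with a level of at least 5% methylated reads, a depth of at least 5 reads and at least 2 methylated reads. A cytosine missing from a list may therefore be unmethylated, weakly methylated or thinly covered, and all levels below are those of listed cytosines. The targeted gene laeA (MYCTH_2294559, chromosome 1, 1373921 to 1375913) held no member, so the members do not check the deletion. ΔlaeA replicate 1 listed 2 CG pairs on both strands inside laeA, and the other 3 libraries listed 0. The pair at 1374036 to 1374037 had 91 and 123 reads on the plus and minus strand, and the pair at 1374608 to 1374609 had 6 and 10. The median depth of that library was 56, so the second pair was thinly covered. Why this library had reads inside the annotated gene was not tested. Which bases of the annotated gene the cassette replaced is not given in the sources used here.

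The members mostly had low levels. No bisulfite conversion rate was used here, and how far unconverted cytosine adds to these levels was not tested. The median level of a dyad, taken as methylated reads over all reads of both cytosines, was 14.0% in each WT library. The middle 90% of dyads lay between 7.22% and 32.5% in WT replicate 1 and between 7.19% and 33.0% in WT replicate 2. Few dyads reached 50%: 413 in WT replicate 1 and 461 in WT replicate 2, which were 0.970% and 1.08% of all members. Since the rule used the WT lists, these values describe how the members were chosen. The lowest of the 4 WT cytosine levels was under 6% in 7850 members, or 18.4%, with a median of 5.45%. Just outside the rule stood 37417 pairs with 3 of the 4 WT entries, whose highest cytosine level had a median of 13.7% and whose lowest listed level had a median of 6.58%.

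Most members lay outside genes. Of the 42597 dyads, 1492 (3.50%) fell inside an annotated gene, against 13211 of the 209768 other listed CG pairs (6.30%), while genes covered 46.7% of the bases up to the last gene on each chromosome. The members were spread over 9083 windows of 1 kb, and the median gap between neighbours was 119 bp. Of these dyads, 10978 or 25.8% stood in 827 windows with at least 10 members, and the fullest window held 30. Chromosome 1 had 12077 members, which were 20.04% of its listed CG pairs. Chromosome 7 had 3527, or 13.2%. Only 118 of 9292 annotated genes held a member, and 35 held at least 10.

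The gene with most members was MYCTH_2123212 (chromosome 1, 5038711 to 5048680), a protein-coding model of 9970 bp with 127 dyads. Over its 90 dyads that were listed on both strands in all 4 libraries the level was 19.1% and 19.3% in ΔlaeA, against 22.4% and 21.4% in WT. MYCTH_2062106 (chromosome 3, 3824348 to 3842015) had 106 dyads, with 14.3% and 14.5% in ΔlaeA and 14.7% and 14.3% in WT over 57 of them. The strains overlapped in this gene, unlike in the first one. MYCTH_2135800 (chromosome 6, 4029353 to 4039009) had 68 dyads and ran the other way, with 21.0% and 20.5% in ΔlaeA and 18.4% and 18.6% in WT over 50 of them. The remaining 7 of the 10 genes with most members had 40 to 88 dyads and levels between 13.9% and 22.1% in all libraries. Among these 7, MYCTH_2122159 was lower and MYCTH_2126919 higher in both ΔlaeA libraries than in either WT library, and the others overlapped. Genes were not tested, and genes without overlap were not counted over all genes. For scale, the strains did not overlap in 42.6% of the 1-kb windows tested below. The study followed 10 other genes. They encode the cellulase activators Clr-1, Clr-2 and XlnR, the LaeA-like methyltransferase LaeB, the repressors Cre-1 and Grf-1 to Grf-3, and the gluconeogenic enzymes PCK and FBP. These genes had 0 members in their bodies or within 1 kb on each side. Only 118 of all 9292 annotated genes held a member, so 0 of 10 is near the share of all genes. The share with a member within 1 kb was not counted over all genes.

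Most members were again found on both strands in the mutant. ΔlaeA replicate 1 listed 33026 of the 42597 dyads (77.5%) on both strands, and ΔlaeA replicate 2 listed 30448 (71.5%). In ΔlaeA replicate 1, 4326 dyads kept only the plus cytosine and 4275 only the minus cytosine. The same counts in ΔlaeA replicate 2 were 5373 and 5361, so that the counts for the 2 strands were close. Neither cytosine was listed for 970 dyads (2.28%) in ΔlaeA replicate 1 and 1415 (3.32%) in ΔlaeA replicate 2. Shares on both strands were below 100% partly because membership was set in WT, and a cytosine just above the limits in WT can miss them in any other library. The mirrored set, 36822 dyads chosen on both strands in both ΔlaeA lists, was listed on both strands at 80.8% in WT replicate 1 and 82.4% in WT replicate 2. Read depth moved with these shares, since the shallowest library gave the lowest share, and its part was not tested.

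The share rose with the WT level of the dyad. Of the 2628 members with a mean WT level under 8%, 38.3% were on both strands in ΔlaeA replicate 1 and 34.2% in ΔlaeA replicate 2. Of the 2713 members at 30% or more, 99.1% and 98.0% were. The 1000 members with the highest level in WT replicate 1 were found on both strands 995 times in each ΔlaeA library, with a median of 46.4% and 44.3% there and 47.3% in WT replicate 2. The median of the same dyads in WT replicate 1, where they were chosen, was 47.9%. Absence was thus concentrated among the weakest members.

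**Figure D1:**
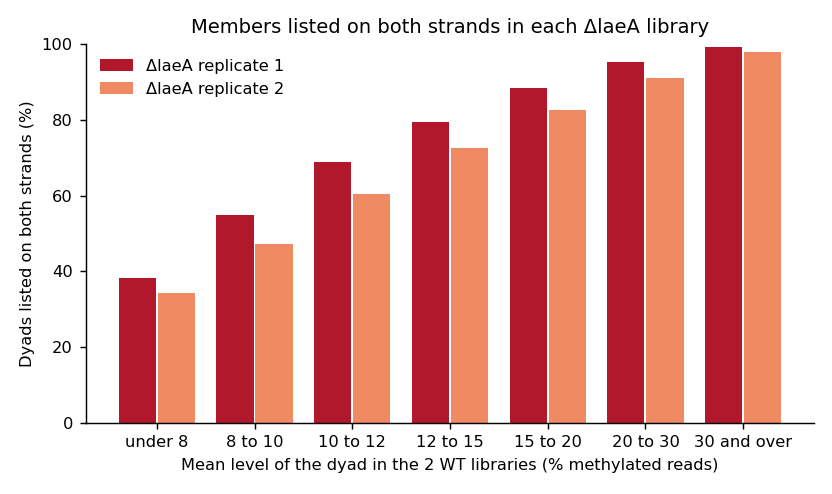
Bars give the percentage of members listed on both strands in each ΔlaeA library (y axis) by the mean level of the dyad in the 2 WT libraries (x axis, percent methylated reads). The share climbs from 38.3% and 34.2% in the lowest class to 99.1% and 98.0% in the highest, and ΔlaeA replicate 2, the shallower library, is lower in every class.

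A total of 231 members (0.542%) were missing on both strands from both ΔlaeA lists. Their median WT level was 7.90% and the highest 15.8%, against a median of 16.5% for the members present throughout. In the mirrored direction, 83 of 36822 dyads (0.225%) were missing on both strands from both WT lists. A single 1-kb window, on chromosome 7 from 1389001 to 1390000, held 5 absent members among its 6. The WT levels of these 5 dyads lay between 7.14% and 17.4% in WT replicate 1 and between 5.37% and 15.9% in WT replicate 2. This window was singled out after its values were seen. A dyad missing from both lists of a strain enters no test of levels below.

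Both strands were listed in all 4 libraries for 26143 members (61.4%). These complete dyads meet the same condition in every library, so their levels can be compared between the strains. Over them, 17.8% and 17.4% of reads were methylated in the ΔlaeA libraries, against 18.1% in each WT library. The means were 17.6 ± 0.261% in ΔlaeA and 18.1 ± 0.0441% in WT (SD, n = 2 each), a difference of -0.494 percentage points. The exact two-sided permutation test gave p = 0.333, the smallest value that 2 libraries against 2 allow. The other 76101 CG cytosines in all 4 lists were at 13.4% and 13.5% in ΔlaeA and 13.9% in each WT library, a difference of -0.438 points (exact permutation p = 0.333). Without ΔlaeA replicate 2 the difference was -0.309 points. With all members instead of the complete dyads, and a cytosine counted only where listed, the mean was 16.2% in ΔlaeA and 15.6% in WT, because weak cytosines leave the ΔlaeA sum and cannot leave the WT sum.

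Single dyads gave few calls between the strains. The test ran over 102244 CG units in all 4 lists, with a complete dyad as 1 unit and every other CG cytosine as a unit of its own, and 2 units (0.00196%) passed an adjusted p of 0.05 by edgeR's quasi-likelihood test. One of them was a dyad. At an unadjusted p under 0.05 stood 1467 of the 26143 dyads, or 5.61%. The median dyad difference was -0.48 points, and 14500 dyads (55.5%) were lower in the mean of ΔlaeA. The 2 strains did not overlap in 9273 dyads (35.5%), while this was so for 34.3% of all units tested. A mean lower by at least 10 points was seen in 361 dyads, and a mean higher by at least 10 points in 163.

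The dyad that was called lies on chromosome 1 at 5800249 to 5800250, 1688 bp from MYCTH_114497. It had 36.3% and 30.9% methylated reads in ΔlaeA, against 68.6% and 60.8% in WT. The adjusted p of edgeR was 0.0388. Its plus cytosine was at 54.2% and 33.3% in ΔlaeA and at 71.8% and 72.1% in WT. Its minus cytosine was at 20.4% and 27.3% in ΔlaeA and at 64.5% and 47.2% in WT. Both cytosines, on whose summed reads the dyad was called, were thus lower in each ΔlaeA library than in either WT library. The call was lost without any 1 of the 4 libraries, when the difference lay between -35.0 and -27.2 points and the adjusted p was 1, and with the level of each library as an offset.

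The 5 dyads with the highest mean level over all 4 libraries are given as a description, since the choice used both strains. The highest stood on chromosome 2 at 4217807 to 4217808, 730 bp from MYCTH_92508, with 85.7% and 79.0% in ΔlaeA and 90.7% and 88.1% in WT. A second dyad on chromosome 2, at 1391010 to 1391011, had 90.5% and 80.9% in ΔlaeA and 77.1% and 75.6% in WT. The dyad at 2136360 to 2136361 of chromosome 4 had 76.0% and 77.6% in ΔlaeA, against 79.0% and 79.7% in WT. These 3 and the 2 that followed, on chromosomes 7 and 1, differed by at most 9.32 points between the strain means and had an adjusted p of 1 by edgeR. All 5 lay outside genes, and in none did the strands differ at an adjusted p under 0.05.

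Neighbouring dyads were then summed in windows of 1 kb with at least 5 complete dyads. There were 1786 such windows with 13553 dyads, and 12 of them (0.672%) passed an adjusted p of 0.05 by edgeR. The count was 19 without WT replicate 1, 34 without ΔlaeA replicate 1 and 25 without ΔlaeA replicate 2, and 96 by Fisher's exact test on pooled reads. Of the 12 windows, 10 were lower and 2 higher in ΔlaeA. The window means did not overlap between the strains in 761 windows, or 42.6% of those tested, and 1076 (60.2%) were lower in ΔlaeA. The median window difference was -0.48 points. Every dyad but 1 in the lower windows was lower in the mean of ΔlaeA, and every dyad in the higher windows was higher. The windows were called on the summed reads of these same dyads, so this is a description and adds nothing to the calls.

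The deepest fall was on chromosome 1 from 5799001 to 5800000, just before the dyad called alone and 1183 bp from MYCTH_2115324. Its 9 dyads were at 30.1% and 26.6% in ΔlaeA and at 42.3% and 41.5% in WT, a difference of -13.6 points (edgeR adjusted p = 0.00320). The window on chromosome 4 from 34001 to 35000 held 5 dyads at 23.2% and 19.5% in ΔlaeA, against 32.8% and 34.3% in WT (-12.2 points, edgeR adjusted p = 0.0246). The window on chromosome 1 from 2931001 to 2932000 held 10 dyads at 21.5% and 20.4% in ΔlaeA, against 31.3% and 30.9% in WT (-10.2 points, edgeR adjusted p = 0.00320). Both ΔlaeA libraries were below both WT libraries in all 3 windows, which were called on these same values. A further 7 windows fell by 8.26 to 10.1 points, and 1 of the 7, on chromosome 5 from 1195001 to 1196000, lay inside the gene MYCTH_2128790.

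Both called rises were on chromosome 1, with 1 kb between them. The dyads of the window from 951001 to 952000 were at 27.7% and 29.0% in ΔlaeA, against 17.4% and 16.3% in WT, a rise of 11.5 points over 10 dyads (edgeR adjusted p = 0.00178). Those of the window from 949001 to 950000 were at 22.3% and 22.9% in ΔlaeA, against 14.8% and 15.3% in WT, a rise of 7.56 points over 10 dyads (edgeR adjusted p = 0.00690). The nearest gene to both was MYCTH_2294362, at 4746 bp and 6746 bp.

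The cytosines of other contexts in the called windows were read beside the dyads, with H standing for any base but G. In the window from 951001 the listed CHH cytosines were at 30.4% and 29.8% in ΔlaeA, against 21.4% and 22.0% in WT. In the window from 5799001 they were at 29.4% and 27.0% in ΔlaeA, against 34.7% and 33.5% in WT. In the window from 2931001 they were at 19.4% and 20.4% in ΔlaeA, against 24.6% and 24.8% in WT. In all 12 called windows the CHH levels of the strains did not overlap and stood on the side of the dyads, by listed sites only. For CHG cytosines, of which a library listed 5 to 38 in a window, this was so in 9 of the 12. In the window of chromosome 1 from 6015001 to 6016000, for example, CHG levels were 29.4% and 26.7% in ΔlaeA, against 28.0% and 40.4% in WT. How often CHH or CHG levels stood on the side of the dyads was not counted over all 1786 windows. The counts for the called windows therefore have no background share. The dyad levels alone did not overlap in 42.6% of all windows tested. The calls for the 5 windows with coordinates and values above held without each library in turn. Of the 7 other falls, 3 were lost without WT replicate 1 and 2 without WT replicate 2, with adjusted p of 0.0536 to 0.136.

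**Figure D2:**
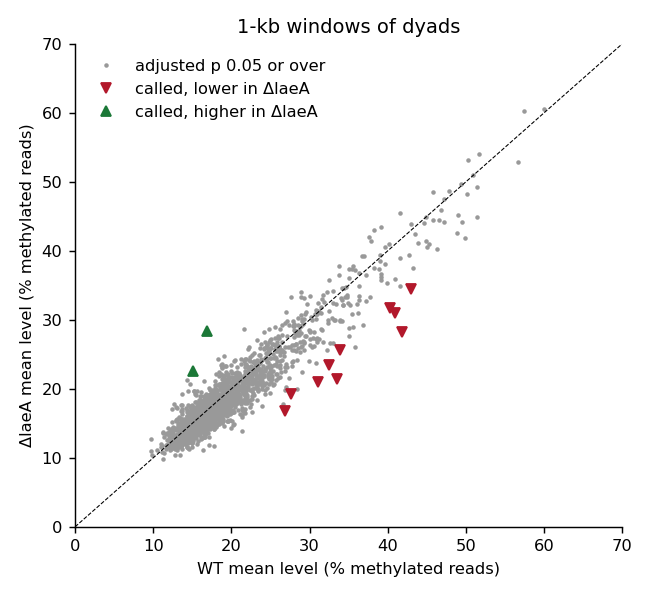
Each point is a 1-kb window with at least 5 complete dyads, with its mean level in the 2 ΔlaeA libraries on the y axis and in the 2 WT libraries on the x axis (percent methylated reads), and the dashed line marks equal levels. The 10 windows called lower in ΔlaeA and the 2 called higher lie at the edge of a cloud of 1786 windows that follows the line.

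The level of the complete dyads was read by their number per window. This number depends on the level by construction, since a dyad is complete only when both cytosines pass the limit in all 4 lists, so the values are a description. Complete dyads alone in their window had a median level of 13.3% and 13.0% in ΔlaeA, against 13.8% and 13.9% in WT. Those with 10 or more complete dyads in the window had 22.3% and 21.8% in ΔlaeA, against 22.4% and 22.8% in WT. Across the 1786 windows the level of the dyads followed that of the CHH cytosines, with Pearson's r of 0.872 and 0.863 in ΔlaeA and 0.871 and 0.875 in WT. For CHG cytosines r was 0.806 and 0.786 in ΔlaeA and 0.802 and 0.805 in WT. Median levels of the windows were close in all contexts. In ΔlaeA replicate 1 they were 18.1% for dyads, 17.6% for CHG and 17.0% for CHH cytosines, and in WT replicate 1 they were 18.3%, 17.7% and 17.2%. These are descriptions across windows that share a library and its depth, and every site was chosen by the same limits.

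The 2 cytosines of a dyad were only loosely tied. Over the 26143 complete dyads, Pearson's r between the plus and the minus level was 0.445 and 0.408 in ΔlaeA, against 0.428 and 0.438 in WT. Spearman's rho was 0.293 and 0.272 in ΔlaeA, against 0.278 and 0.297 in WT. The same cytosine read in another library gave far higher values, with r between 0.765 and 0.802 over all pairs of libraries and both strands. All these values are descriptions over dyads with both strands listed in every library, a condition that trims the low end of each strand, and the dyads of a library share its depth.

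The r within a dyad was close to that between cytosines of neighbouring dyads, though the sets of dyads differed. In 1467 pairs of dyads 2 to 10 bp apart, the plus cytosine of the dyad at the lower position was set against the minus cytosine of the other. Their r was 0.419 and 0.417 in ΔlaeA, against 0.404 and 0.420 in WT. At 11 to 50 bp this r was 0.431 and 0.390 in ΔlaeA and 0.398 and 0.418 in WT. It was 0.337 and 0.300 in ΔlaeA and 0.323 and 0.326 in WT beyond 200 bp, up to 1000 bp. In ΔlaeA replicate 2 the r at 2 to 10 bp, 0.417, was above that within the dyad, 0.408. The plus cytosines of 2 dyads 2 to 10 bp apart had an r of 0.482 and 0.488 in ΔlaeA and 0.476 and 0.482 in WT. These values were above those of the partners in all 4 libraries. Minus cytosines were not compared with each other. Differences between these correlations were not tested. The r within dyads was taken over all 26143 complete dyads, and the r by distance only over those with another complete dyad that near. The r within the dyads of these pairs was not computed, and levels were higher where dyads stood close together.

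**Figure D3:**
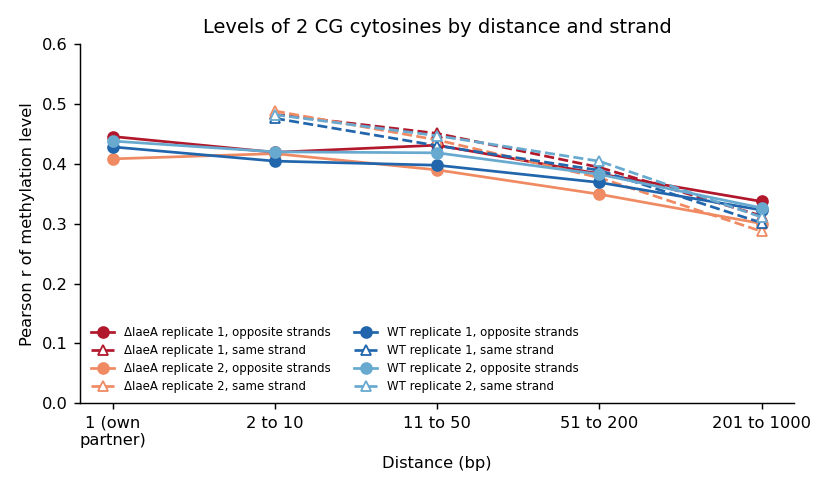
Pearson's r of the methylation levels of 2 CG cytosines (y axis) is plotted against their distance in bp (x axis, classes), with a colour for each library. Filled points (opposite strands) set a plus cytosine against the minus cytosine of its own dyad or of one at a higher position. Open triangles (same strand) set 2 plus cytosines against each other. The r of the partners in a dyad, over all complete dyads, is 0.408 to 0.445. It is close to that of the opposite-strand cytosines of dyads 2 to 10 bp apart, 0.404 to 0.420, and below that of plus cytosines at that distance, 0.476 to 0.488. The sets of dyads differ between the classes.

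In many dyads the strands differed over the 4 libraries. The 2 strands were compared within each library by edgeR over all complete dyads, and 8083 of 26143 (30.9%) had an adjusted p under 0.05. The minus cytosine was higher in 4038 of them and the plus cytosine in 4045, so that neither strand was favoured over the genome. The mean difference of minus and plus level was 0.0232 and -0.0398 points in the ΔlaeA libraries and 0.117 and -0.0410 points in the WT libraries. Among the called dyads the median size of the difference was 13.4 points, with a median of 26.6% on the higher and 11.9% on the lower strand. Calls made up 3.84% of dyads with a mean level under 10%, 50.9% of those between 30% and 50%, and 40.5% at 50% and over. The listing limit of 5% leaves little room for a difference between strands at the lowest levels. Relative to the mean level, the median size of the difference was 0.225 under 10%, 0.317 to 0.374 in the classes between 10% and 50%, and 0.187 at 50% and over.

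The higher strand was the same in all 4 libraries for 11492 dyads (44.0%), and in 2275 (8.70%) the difference was also at least 10 points in each library. The difference between strands had an r of 0.621 between the 2 ΔlaeA libraries, 0.650 between the 2 WT libraries and 0.615 to 0.650 between a ΔlaeA and a WT library. Libraries of different strains were thus about as alike as libraries of 1 strain. Grouping by WT replicate 1 alone shows this in libraries that the grouping did not use. The 1235 dyads whose minus cytosine was higher by 20 points or more in WT replicate 1 had a median difference of 17.1 and 16.9 points in ΔlaeA and 18.0 points in WT replicate 2. The 1186 dyads whose plus cytosine was higher by 20 points or more there had -17.6 and -17.3 points in ΔlaeA and -18.6 points in WT replicate 2. A test of whether the strand difference itself depended on the strain called 0 of 26143 dyads (0%) by edgeR. Its smallest adjusted p was 0.828, and 985 dyads (3.77%) had an unadjusted p under 0.05. This test was added after the data were seen, and it does not show that the strains are equal.

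**Figure D4:**
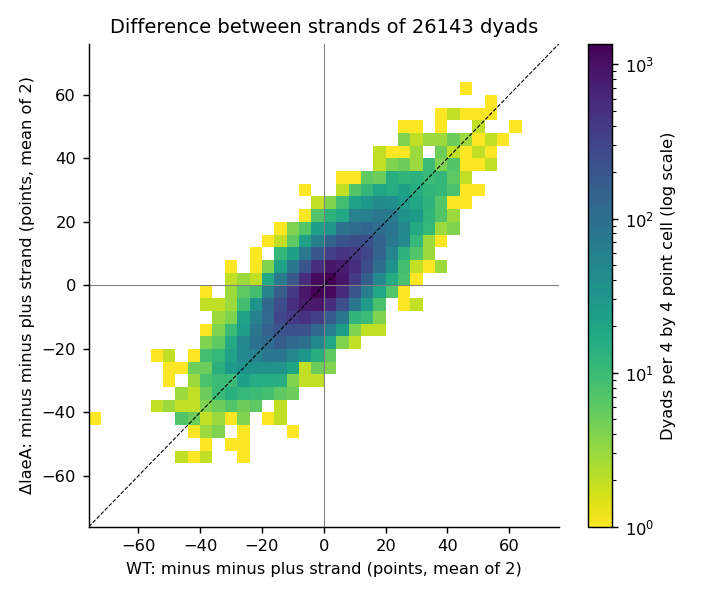
The difference between the minus and plus level of each of the 26143 complete dyads is shown as the mean of the 2 ΔlaeA libraries (y axis) against the mean of the 2 WT libraries (x axis), both in percentage points, and colour gives the number of dyads per cell on a log scale. The dyads stretch along the dashed line of equal differences in both directions.

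The dyads with the largest differences had a far higher level on 1 strand than on the other. At 5069883 to 5069884 on chromosome 1, 919 bp from MYCTH_2296812, the minus cytosine was at 72.0% and 50% in ΔlaeA and at 84.6% and 76.5% in WT. The plus cytosine of that dyad was at 10% and 13.0% in ΔlaeA and at 18.1% and 17.3% in WT. The minus strand was higher by 56.2 points on average over the 4 libraries (edgeR adjusted p = 1.8e-16). At 4473499 to 4473500 on chromosome 1, 686 bp from MYCTH_2296525, the opposite was seen. Its plus cytosine was at 58.8% and 60% in ΔlaeA and at 88.2% and 75% in WT, and its minus cytosine was at 12.2% and 25% in ΔlaeA and at 8.33% and 10.8% in WT. The mean difference was -56.4 points (edgeR adjusted p = 7.67e-13). The higher strand had only 14 to 34 reads per library in the first of these dyads and 17 to 34 in the second.

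The dyad at 6764793 to 6764794 of chromosome 1 had its minus cytosine at 69.0% and 82.4% in ΔlaeA and at 70.4% and 65.8% in WT, against a plus cytosine at 18.4% and 17.6% in ΔlaeA and at 12.5% and 15.4% in WT. The dyad at 2619582 to 2619583 of chromosome 6 had its plus cytosine at 86.4% and 50% in ΔlaeA and at 66.7% and 73.7% in WT, and its minus cytosine at 16.3% and 14.3% in ΔlaeA and at 27.8% and 20.5% in WT. In these 4 dyads the same strand was the higher one in every library. The 5 largest minus excesses averaged 51.8 to 56.2 points and the 5 largest plus excesses gave minus-minus-plus differences of -56.4 to -47.4 points. Of these 10 dyads, 8 stood on chromosome 1, which held 7929 of the 26143 complete dyads. None of the 10 stood inside a gene, where only 3.50% of all members lay. The calls of the 10 dyads held under each of the alternatives tried for them.

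Read depth differed between the strands as well. In all 10 of these dyads the strand with the higher level had fewer reads, with 0.367 to 0.788 times the depth of the other strand over the 4 libraries. The same held for 4791 of the 8083 called dyads (59.3%), and for 14472 of all 26143 (55.4%). The part of depth in the strand difference was not tested. Among the 11716 dyads whose summed depths on the 2 strands lay within 1.2 times of each other, 3725 (31.8%) were called, which is close to the share of all dyads. That restriction was added after the data were seen.

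The strand difference was also described by the bases beside a dyad. A neighbouring base could be read only where a listed cytosine stood at that place on either strand, which was so for 6239 dyads (23.9%) at the base before the plus cytosine and for 6322 (24.2%) at the base after the pair. A base is named here on the strand of the cytosine in question, counted towards its 5′ end, and each cytosine is compared with its own partner. A cytosine before it was therefore seen only where its own strand had a methylated neighbour, and a guanine only where the strand of its partner had one. The kind of base and the strand that carried methylation beside the dyad cannot be told apart in these values. A cytosine with a guanine 1 base before it was below its partner, with a median of -7.79 points on the plus strand (304 cytosines, mean of the 4 library medians) and -5.79 points on the minus strand (329 cytosines). A guanine 2 bases before went with a median of -4.92 points on the plus strand (2423 cytosines) and -4.63 points on the minus strand (2512 cytosines). A cytosine 1 base before went the other way, with 1.49 points on the plus strand (5935 cytosines) and 1.26 points on the minus strand (5993 cytosines).

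Farther off, a guanine 4 bases before went with 2.25 points on the plus and 1.90 points on the minus strand. A cytosine 3 bases before went with 1.5 and 1.6 points on these strands, and a cytosine 2 bases before with -1.30 and -1.39 points. All 8 classes of base and place had the same sign on both strands and in all 4 libraries. For a guanine 1 base before on the plus strand, the library medians lay between -8.72 and -6.62 points. Among the dyads called between strands, a cytosine with a guanine 2 bases before it was the higher one in 197 of 1020 (19.3%) on the plus strand and 217 of 1037 (20.9%) on the minus strand. No class was tested, classes overlap, the partner has bases of its own and dyads without a listed neighbour were left out.

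**Figure D5:**
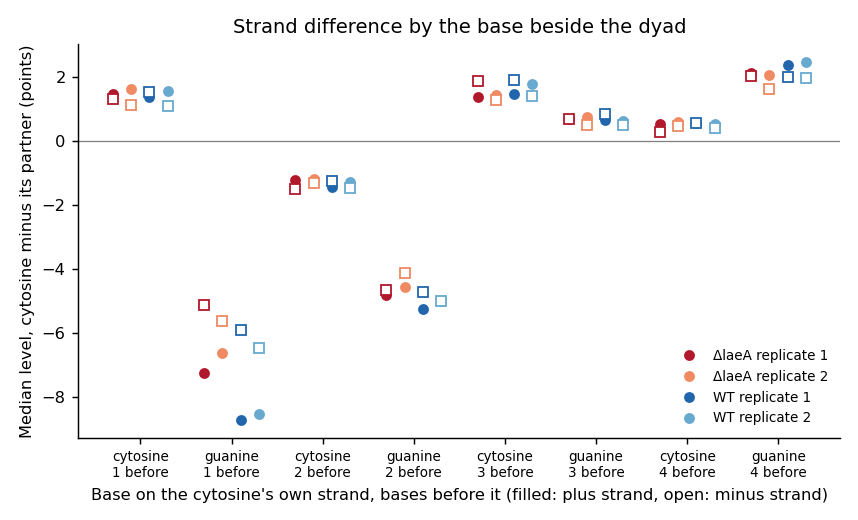
The median level of a cytosine minus that of its partner (y axis, percentage points) is shown by the base that stands 1 to 4 bases before it on its own strand (x axis), in each library by colour, with filled circles for plus and open squares for minus cytosines. A guanine 1 or 2 bases before lies below 0 in all libraries on both strands, and a guanine 4 bases before lies above 0.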

How the data were processed

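Whole-genome bisulfite libraries of ΔlaeA and WT mycelium (2 each) were used, prepared by sonication, bisulfite conversion and paired-end Illumina sequencing with lambda DNA spiked in. For each library the authors deposited a list of called cytosines with methylated and unmethylated read counts. They also deposited the level as a fraction, computed by the authors as methylated over all reads. The p-values deposited with the calls, raw and adjusted, were used only to see the calling limits. The submitters' processing notes name FastQC 0.11.5 and Bismark 0.16.3. The genome build is not given in the sources used here, but chromosome accessions match assembly ASM22609v1, whose RefSeq table gave 9292 genes. A table of differentially methylated regions, which holds the authors' own strain means, differences and area statistic, was not used. Replicates are those of the titles.

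Plus and minus CG cytosines at adjacent positions were joined, with 1-based coordinates. Counts were tested with edgeR 4.0.16 (R 4.3.3) with its quasi-likelihood test of the methylated against the unmethylated reads, with a coverage term per library, no dispersion trend and Benjamini-Hochberg adjustment at 0.05. The tests ran over all CG units in all 4 lists, over windows of 1000 bp with at least 5 complete dyads, and between strands within libraries. The edgeR fits were run on simulated binomial counts with no added spread between the libraries of a strain. These runs cannot show how many false calls such spread would give. Library levels were compared by the exact permutation test. The dyads named were the 5 largest called falls and rises with at least 10 reads per cytosine and no overlap, the 5 highest levels with depth up to 2 times the library median, and the 5 largest called excesses of each strand. The windows named were the 3 largest called falls and rises, and the genes were the 10 with most members and those the study followed. The members and lists were chosen with earlier results of these data known. Alternatives were depth minima of 10 and 20 reads, removal of deep dyads, other ways of counting, a level offset, Fisher's exact test, a replicate block and each library left out. At a median depth of 47 to 59 reads per listed cytosine, single levels carry wide counting error.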

Additional observations from a re-analysis of the deposited data

How the results depend on the processing

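The level difference of the complete dyads kept its sign under 10 of 11 alternatives and lay between -0.679 and -0.309 points without each library in turn. It turned to 0.567 points when all members were used and a cytosine was counted only where listed. The 1 dyad called between the strains stayed at 1 with at least 10 or 20 reads, without deep dyads and by Fisher's exact test on pooled reads, and the count was 0 with a level offset and 0 without any 1 library. The count of called windows, 12 of 1786 (0.672%) in the main test, was 12 under the depth filters and 15 with an offset. With at least 10 dyads per window, 14 of 340 windows (4.12%) were called, and 5 of these were among the 12. By Fisher's exact test the count was 96, with the libraries of a strain pooled and their spread not seen. Without each library the count lay between 16 and 34. The cause was not tested. The strand calls lay between 7654 and 8082 under other depth filters and Fisher's exact test, at 3725 of 11716 dyads with balanced depth, and between 6024 and 6756 without each library. The mean correlation within dyads was 0.430, and 0.285 as Spearman's rho. The share of members on both strands in ΔlaeA averaged 74.5% and lay between 71.5% and 77.5% for single libraries.

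The replicate numbers do not pair the samples. With the replicate block, 2 dyads and 41 windows were called. Over the complete dyads, the difference of replicate 1 and replicate 2 in ΔlaeA correlated with that in WT at r = 0.0101. For the called windows and the 6 dyads named for their strain difference or level, the block changed no call. It was not run on the strand excesses, which were compared within libraries.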
